A study of Mus musculus with 6 samples.

Results

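Potassium channels were examined in sensory neurons of the mouse embryo through 42 genes: the pore and auxiliary subunits of voltage-gated, inward-rectifier, calcium-activated and sodium-activated potassium channels. The members were given as a list of symbols, from which the Kcnk leak channels were left out, and were matched by Ensembl identifier to 42 of the 41388 genes in the count files. The libraries were made from EGFP-positive cells of dorsal root ganglia (DRG), the clusters of sensory neuron bodies beside the spinal cord, taken at levels T11 to S1 from embryos at 18.5 dpc (days after coitum). Female libraries A, B and C and male libraries A, C and D made up the 6 samples, with 3 of each sex. All carried the Tg(Ret-EGFP)SJ reporter on a C57BL/6 background, and the series text describes EGFP knocked into the Ret locus of heterozygotes, so no library was free of the reporter. The reporter limits the cells to those in which the Ret locus drives EGFP, and cells without EGFP were not analysed here. Each library came from different embryos: female A held 60 ganglia of 3 embryos, female B and female C 20 ganglia of 1 embryo each, male A 60 ganglia of 3 embryos, and male C and male D 40 ganglia of 2 embryos each. Female B and female C were described in a different form from the other 4 libraries and are called record set 2, and the other 4 record set 1.

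Potassium channels set the resting potential of a neuron and end its action potentials. Voltage-gated (Kv) channels are assembled from 4 pore subunits, and auxiliary subunits (Kv beta, KChIP and DPP-like proteins) alter their gating and surface number. Kv5, Kv6, Kv8 and Kv9 proteins form no channel alone and modify Kv2 channels. Inward rectifiers (Kir) pass current near the resting potential, SK and BK channels open with intracellular calcium, and Kcnt channels open with intracellular sodium. In sensory neurons the transient Kv4 current and the low-threshold Kv1 current are known brakes on firing.

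Total counts were 17861500 to 29330101 per library, and 3 counts, the upper limit behind a 0, came to 0.102 to 0.168 CPM (counts at a common library total). Such limits cover counting error only, because the cDNA was amplified with no molecular identifiers. Ret stood at 181.6 ± 27.2 CPM (SD, n = 6). The 13 sensory neuron markers found in the files summed to between 17020 and 24270 CPM, and the lowest sum was that of male A. A pair of libraries stood apart. Male A had a summed satellite glia and Schwann cell level of 2597 CPM against 1198 to 1326 CPM in the other 5. Of the 12 markers, 9 were highest there, while Fabp7 was lowest there, at 337.2 CPM against 414.3 to 549.5 CPM. The summed fibroblast level of male A was 2876 CPM against 574.5 to 675.8 CPM. The library labelled male C had 58.9 CPM of Xist, the X-inactivation RNA, against 0.418 and 0.576 CPM in male A and male D and 111.5 to 197.4 CPM in females. Results on the sexes are therefore given with and without these libraries. In bulk samples, fewer cells of a type and less RNA per cell cannot be told apart.

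Some members of the Kv1 and Kv3 families lie within 1 Mb of one another and stood at very different levels. Promoter windows from 2 such clusters are therefore shown first. Levels are RPKM, counts per kilobase of the summed exon length in the files and per library total scaled as for CPM, computed with TMM library factors. On GRCm38 chromosome 6, Kcna6, Kcna1 and Kcna5 lie within 208.1 kb on the minus strand, and their mean levels over 6 libraries were 21.5, 3.79 and 0.247 RPKM, a spread of 86.8-fold. In the annotation of the files, the span of Kcna5 (126532553 to 126698192) contains that of Kcna1 (126636463 to 126645801). The Kcna5 window below lies inside the Kcna5 span and not at its upper end, where a minus-strand gene begins. On chromosome 3, Kcnc4, Kcna2 and Kcna3 lie within 422.7 kb at 7.69, 0.645 and 0.122 RPKM, a spread of 62.9-fold. The windows below hold 250 bases before to 50 bases after the annotated start in RefSeq (GRCm38.p6), and every CG dinucleotide, the target of DNA methylation, is in capitals. They are Kcna6 at chr6:126740625-126740924 (minus strand), Kcna5 at chr6:126535506-126535805 (minus strand), Kcnc4 at chr3:107458849-107459148 (minus strand) and Kcna3 at chr3:107035912-107036211 (plus strand). These are the highest and the lowest of the members named for each cluster, and genes outside the 42 were not considered.
Kcna6: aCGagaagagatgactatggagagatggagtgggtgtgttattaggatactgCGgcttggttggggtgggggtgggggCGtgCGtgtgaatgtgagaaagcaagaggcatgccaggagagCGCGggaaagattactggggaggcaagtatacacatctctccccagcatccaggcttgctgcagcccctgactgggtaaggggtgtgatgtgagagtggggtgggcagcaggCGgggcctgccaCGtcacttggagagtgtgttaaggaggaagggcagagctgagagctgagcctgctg
Kcna5: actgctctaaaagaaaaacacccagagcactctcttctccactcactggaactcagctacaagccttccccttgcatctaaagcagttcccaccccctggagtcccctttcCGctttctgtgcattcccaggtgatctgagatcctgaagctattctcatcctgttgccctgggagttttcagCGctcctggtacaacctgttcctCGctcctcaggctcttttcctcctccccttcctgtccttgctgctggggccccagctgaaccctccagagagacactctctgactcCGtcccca
Kcnc4: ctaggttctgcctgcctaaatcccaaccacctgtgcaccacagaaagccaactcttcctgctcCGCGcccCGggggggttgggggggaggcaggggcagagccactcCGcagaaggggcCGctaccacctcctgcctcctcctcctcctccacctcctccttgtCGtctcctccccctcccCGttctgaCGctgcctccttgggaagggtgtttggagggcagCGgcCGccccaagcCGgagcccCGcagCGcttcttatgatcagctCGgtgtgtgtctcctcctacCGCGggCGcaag
Kcna3: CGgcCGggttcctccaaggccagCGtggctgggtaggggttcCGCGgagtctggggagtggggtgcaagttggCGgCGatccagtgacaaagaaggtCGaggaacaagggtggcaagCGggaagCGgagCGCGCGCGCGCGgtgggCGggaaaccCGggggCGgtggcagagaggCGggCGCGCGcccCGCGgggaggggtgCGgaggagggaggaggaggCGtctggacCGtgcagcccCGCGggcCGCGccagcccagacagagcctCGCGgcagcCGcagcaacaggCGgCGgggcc
The count of CG was 8 for Kcna6 and 4 for Kcna5, and 17 for Kcnc4 and 37 for Kcna3, so that Kcna3, the lowest gene of the 4 by level, had the most. Windows were found for 34 of the 42 members, the richest window being taken where a gene had several. At least 10 CG (searched as the letters CG, which read the same on both strands) were present in 18 of the 23 members at 1 RPKM or more, in 8 of the 11 members under 1 RPKM, and in 45.8% of all 27025 genes of the table. The median was 18.0 CG in the members at 1 RPKM or more and 19.0 CG in those under it, against 8.0 over all genes. A CG count is a description of the letters, and DNA methylation was not measured here.

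Of the 42 members, 30 had a mean of at least 1 RPKM, which is 71.4%, against 28.5% of all 41388 genes in the files. Of the 37 members that passed the count filter the same 30 are 81.1%, against 77.5% of the 14958 genes that passed it. The median of those 37 members was 2.57 RPKM, against 4.08 RPKM over those genes. A mean of at least 10 RPKM was reached by 7 members: Dpp6, Kcnab2, Kcnd1, Kcna6, Kcnip4, Kcnip2 and Kcnt1. In this order 4 of the 7 encode auxiliary subunits. A further 23 lay between 1 and 10 RPKM, 8 between 0.1 and 1 RPKM and 4 under 0.1 RPKM. These classes depend on the gene length. With the shorter of the summed exon length and the longest coding transcript, Kcnab1 (12.8 RPKM) and Kcnn2 (10.6 RPKM) also reached 10 RPKM. Neighbours in the order of means were mostly not separated by their libraries. Of 41 neighbouring pairs, 4 had the higher member above the lower in all 6 libraries, and 1, Dpp6 over Kcnab2, had ranges that did not overlap. Of the 12 subfamilies of at least 2 members, 9 were led by the same gene in all 6 libraries. This count of 9 holds for the summed exon length, and the Kv3 lead in male D changes with the shorter length. The leaders were picked on these same values and neighbours are the closest pairs of the order, so these counts cannot be compared. The leader by mean was the same gene in all 12 without male A, without male C and without both.

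**Figure D1:**
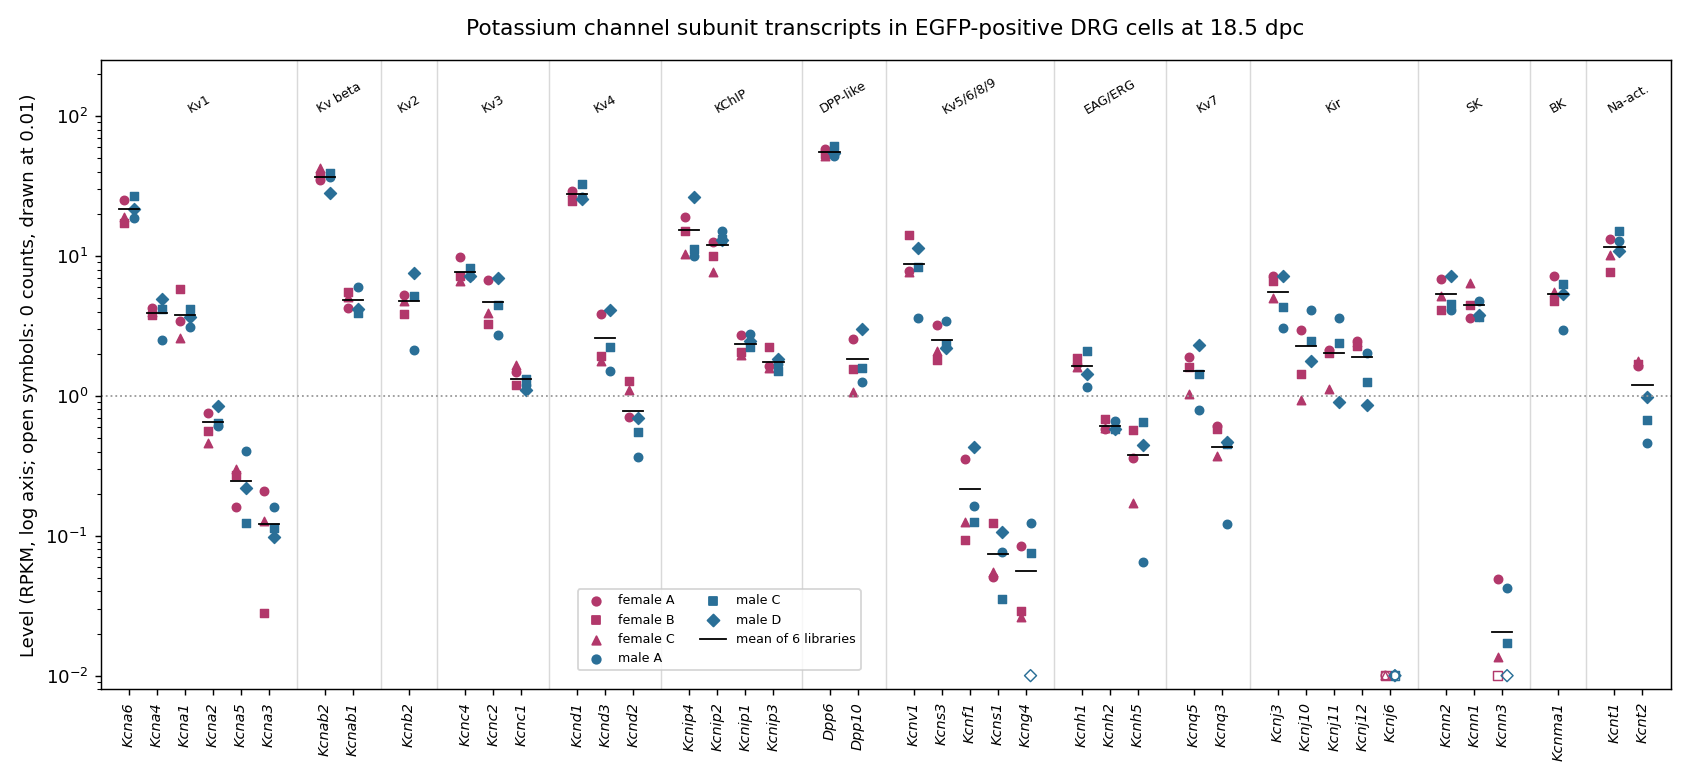
Level of each of the 42 members in each library (RPKM on a log axis, with females to the left of males and the mean of 6 libraries as a line), grouped by subfamily; open symbols are libraries with 0 counts, drawn at 0.01. Dpp6 averaged 55.1 RPKM at the top, and Kcnj6 had no counts in any library.

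Among the Kv4 genes, which encode the pores of the transient A-type current, Kcnd1 made up 89.3% of the summed level of 31.2 RPKM. Kcnd1 (X chromosome, 7822289 to 7838280, plus strand) stood at 29.2, 24.7 and 28.7 RPKM in females A, B and C, against 26.4, 32.5 and 25.6 RPKM in males A, C and D. It varied by only 1.32-fold over the 6 libraries, and females and males overlapped. Kcnd3, the runner-up, stood at 3.85, 1.93 and 1.79 RPKM in females A, B and C, against 1.52, 2.22 and 4.13 RPKM in males A, C and D. Female A and male D were the high libraries for Kcnd3, and Kcnd1 exceeded it in each library, by 10.8-fold on the means. Kcnd2 was the lowest of the 3 at 0.782 ± 0.346 RPKM (SD, n = 6).

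The KChIP genes encode calcium-binding proteins that attach to Kv4 pores. Kcnip4 stood at 19.1, 15.2 and 10.4 RPKM in females A, B and C, against 9.985, 11.2 and 26.2 RPKM in males A, C and D. Kcnip2 stood at 12.6, 9.97 and 7.65 RPKM in females A, B and C, against 15.1, 13.2 and 12.98 RPKM in males A, C and D. No single KChIP led throughout: Kcnip4 was the higher in 4 of the 6 libraries and Kcnip2 in male A and male C. Kcnip1 and Kcnip3 followed at 2.36 ± 0.341 and 1.75 ± 0.268 RPKM.

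The DPP-like proteins are dipeptidyl peptidase relatives without enzyme activity that also join Kv4 channels. Dpp6 (chromosome 5, 26817203 to 27727505, plus strand), the highest of all members, stood at 58.3, 53.8 and 52.0 RPKM in females A, B and C, against 51.4, 60.65 and 54.6 RPKM in males A, C and D. Its coefficient of variation over the 6 libraries was 6.6%, against a median of 26.9% over the 37 members that passed the count filter and 25.3% over all genes that did. Dpp10 stood at 2.53, 1.55 and 1.07 RPKM in females A, B and C, against 1.27, 1.58 and 3.03 RPKM in males A, C and D, so female A and male D were again the high libraries. Summed over genes, KChIP and Kv4 levels were close, with a ratio between 0.682 and 1.43 in the 6 libraries, and DPP-like levels were above Kv4 levels in every library, by 1.68- to 1.99-fold. These ratios depend on the gene length used. With the shorter of the summed exon length and the longest coding transcript, KChIP over Kv4 ran from 1.06 to 2.12 and DPP-like over Kv4 from 3.47 to 4.07.

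**Figure D2:**
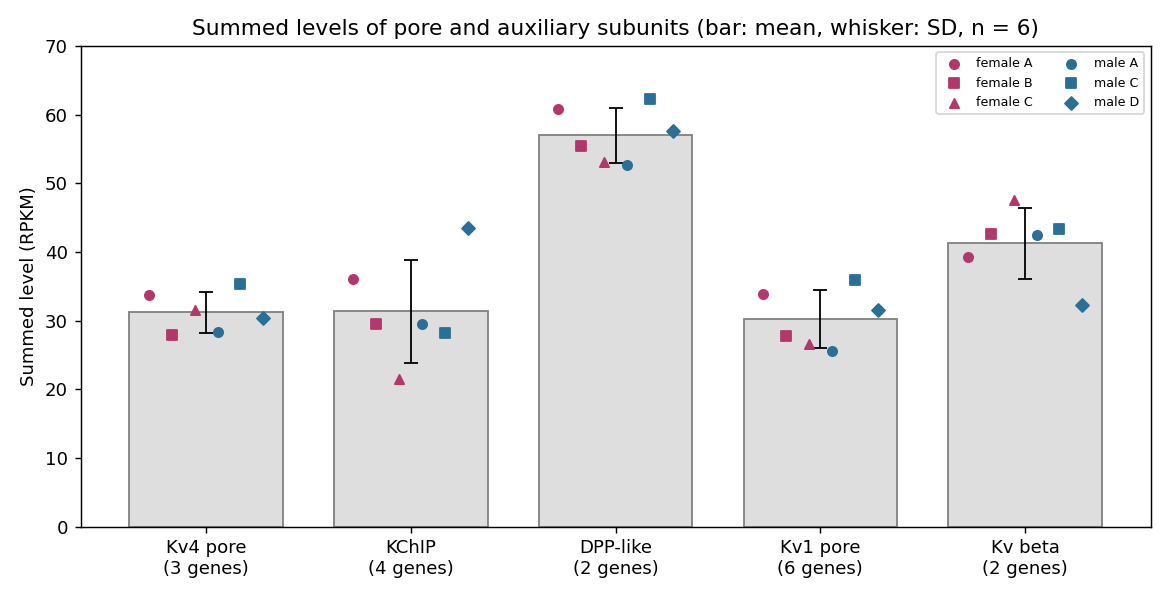
Summed level in RPKM of the pore and auxiliary subunits of Kv4 and Kv1 channels (bar, mean of 6 libraries; whisker, SD; points, libraries, females to the left). The DPP-like sum of 57.0 RPKM stood above the Kv4 pore sum of 31.2 RPKM, and the KChIP sum of 31.4 RPKM beside it.

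Of the Kv1 genes, which encode low-threshold delayed rectifier and A-type pores, Kcna6 made up 71.1% of the summed 30.2 RPKM. Kcna6 (chromosome 6, 126708329 to 126740674, minus strand) stood at 25.1, 17.3 and 19.1 RPKM in females A, B and C, against 18.8, 26.7 and 21.8 RPKM in males A, C and D. Kcna4, an A-type pore, stood at 4.22, 3.77 and 3.96 RPKM in females A, B and C, against 2.50, 4.19 and 4.94 RPKM in males A, C and D. Kcna6 was above Kcna4 in each library, with the means 5.46-fold apart. Kcna1, known for its axonal place beside the node of Ranvier, was level with Kcna4 at 3.79 ± 1.13 RPKM. Kcna2, its usual partner, was at 0.645 ± 0.137 RPKM, Kcna5 at 0.247 ± 0.102 RPKM and Kcna3 at 0.122 ± 0.0608 RPKM with 32 counts in all. With the shorter length, Kcna1 came to 8.44 RPKM and Kcna4 to 3.96 RPKM, so the order below Kcna6 depends on the length. An antisense gene, Gm26673, covers 39.6% of the Kcna6 exons and had 32 counts, and whether the counting used strand is not stated in the sources used here.

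Kv beta proteins are cytoplasmic partners of Kv1 pores. Kcnab2 stood at 35.1, 37.05 and 42.4 RPKM in females A, B and C, against 36.4, 39.4 and 28.1 RPKM in males A, C and D. Kcnab1 stood at 4.26, 5.49 and 5.09 RPKM in females A, B and C, against 6.01, 3.89 and 4.16 RPKM in males A, C and D. Kcnab2 led in every library, and the Kv beta sum was above the Kv1 sum in every library, by 1.02- to 1.79-fold. With the shorter length the same ratio ran from 1.399 to 2.45.

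The Kv2 pore Kcnb2, a delayed rectifier of the soma, stood at 5.27, 3.85 and 4.73 RPKM in females A, B and C, against 2.13, 5.20 and 7.50 RPKM in males A, C and D. Male A was the low library and male D the high one. The modifiers of Kv2 channels were led by Kcnv1, a Kv8 subunit, at 7.78, 14.01 and 7.62 RPKM in females A, B and C and 3.58, 8.34 and 11.4 RPKM in males A, C and D. Kcns3, a Kv9 subunit, stood at 3.21, 1.79 and 2.10 RPKM in females A, B and C, against 3.42, 2.35 and 2.19 RPKM in males A, C and D. Kcnv1 was the higher of these in all 6 libraries, although in male A by 3.58 against 3.42 RPKM. Kcnf1, a Kv5 subunit, was at 0.215 ± 0.141 RPKM, while Kcns1 (25 counts in all libraries together) and Kcng4 (29 counts) were under 0.1 RPKM. Kcng4 had no counts in male D, which allows up to 3 counts there.

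The Kv3 genes encode fast voltage-gated pores that shorten the action potential. Kcnc4 stood at 9.87, 7.13 and 6.58 RPKM in females A, B and C, against 7.17, 8.24 and 7.13 RPKM in males A, C and D. Kcnc2 stood at 6.72, 3.25 and 3.92 RPKM in females A, B and C, against 2.74, 4.49 and 6.93 RPKM in males A, C and D. Kcnc4 led in each library, by the least in male D. With the shorter length Kcnc4 still led on the means, at 7.69 against 5.74 RPKM, but Kcnc2 was the higher in male D. The lead of Kcnc4 in each library thus depends on the length. Kcnc1 was lower at 1.32 ± 0.213 RPKM.

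The EAG, ERG and Kv7 genes encode slowly gating channels, and the Kv7 channels carry the M-current. Kcnh1, an EAG pore, stood at 1.69, 1.87 and 1.61 RPKM in females A, B and C, against 1.16, 2.09 and 1.43 RPKM in males A, C and D. Kcnh2, the ERG pore known from the heart, stood at 0.575, 0.686 and 0.589 RPKM in females A, B and C, against 0.658, 0.575 and 0.584 RPKM in males A, C and D. Kcnh1 was the higher in each library, and Kcnh5 was lower still at 0.378 ± 0.226 RPKM, with 5 counts in male A and 83 in male C. Among Kv7 genes, Kcnq5 stood at 1.90, 1.61 and 1.03 RPKM in females A, B and C, against 0.789, 1.43 and 2.31 RPKM in males A, C and D. Kcnq3 stood at 0.611, 0.578 and 0.372 RPKM in females A, B and C, against 0.121, 0.455 and 0.470 RPKM in males A, C and D. Kcnq5 was above Kcnq3 in all 6 libraries. Kcnh1 was not the highest Kcnh gene once genes outside the 42 were counted. Kcnh6, another ERG pore, averaged 13.6 ± 3.34 RPKM, 8.27-fold above Kcnh1, and Kcnh8, an ELK pore, 2.32 ± 0.409 RPKM, 1.41-fold above it. Both exceeded Kcnh1 in 6 of 6 libraries.

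The inward rectifiers were led by Kcnj3, a subunit of the G-protein-gated channel. It stood at 7.23, 6.61 and 4.98 RPKM in females A, B and C, against 3.06, 4.33 and 7.16 RPKM in males A, C and D. Its neuronal partner Kcnj6 (chromosome 16, 94749266 to 94997696, minus strand) had 0 counts in all 6 libraries, which allows a level of up to 0.0164 to 0.0286 RPKM per library, and was the only member with at most 3 counts in every library. The other G-protein-gated subunits, outside the 42, were also low or absent, with Kcnj9 at 20 counts in all and Kcnj5 at 0. The antisense gene Gm26794 covers 31.1% of the Kcnj3 exons and had 199 counts against 3761 for Kcnj3.

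Kcnj10, the inward rectifier of satellite glia, stood at 2.93, 1.42 and 0.936 RPKM in females A, B and C, against 4.12, 2.48 and 1.78 RPKM in males A, C and D. Male A, the library with the highest summed glial markers although Fabp7 was lowest there, was the highest for Kcnj10. It was the 1 library in which Kcnj10 exceeded Kcnj3. The highest and lowest libraries differed by 4.40-fold. In the other 5 libraries Kcnj10 ran from 0.936 to 2.93 RPKM and summed glial markers from 1198 to 1326 CPM, and the part of glial RNA in the Kcnj10 level was not tested. Kcnj11, the pore of the ATP-sensitive channel, stood at 2.14, 2.03 and 1.11 RPKM in females A, B and C, against 3.61, 2.38 and 0.900 RPKM in males A, C and D, a range of 4.02-fold that also had male A at the top. These 2 were the only members at 1 RPKM or more with a range over 4-fold. Kcnj12, a strong rectifier, averaged 1.88 ± 0.673 RPKM.

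Among calcium-activated channels, Kcnn2 and Kcnn1, both SK pores, could not be ordered. Kcnn2 stood at 6.88, 4.09 and 5.19 RPKM in females A, B and C, against 4.11, 4.52 and 7.15 RPKM in males A, C and D. Kcnn1 stood at 3.62, 4.43 and 6.37 RPKM in females A, B and C, against 4.74, 3.67 and 3.80 RPKM in males A, C and D. Kcnn2 was the higher in female A, male C and male D and Kcnn1 in the other 3. With the shorter length Kcnn2 averaged 10.6 RPKM and Kcnn1 4.44 RPKM, so this too depends on the length. The third SK gene, Kcnn3, had 20 counts over all libraries and none in female B and male D. Kcnma1, the BK pore, stood at 7.22, 4.79 and 5.49 RPKM in females A, B and C, against 2.98, 6.35 and 5.38 RPKM in males A, C and D, with male A the low library. Its auxiliary subunit Kcnmb2, outside the 42, averaged 16.1 ± 3.29 RPKM and exceeded Kcnma1 in 6 of 6 libraries, by 1.92- to 4.31-fold.

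The sodium-activated channels were led by Kcnt1 (Slack), at 13.2, 7.71 and 10.2 RPKM in females A, B and C and 12.8, 15.1 and 10.9 RPKM in males A, C and D. Kcnt2 (Slick) was 9.71-fold lower on the means, and Kcnt1 led in all 6 libraries.

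**Figure D3:**
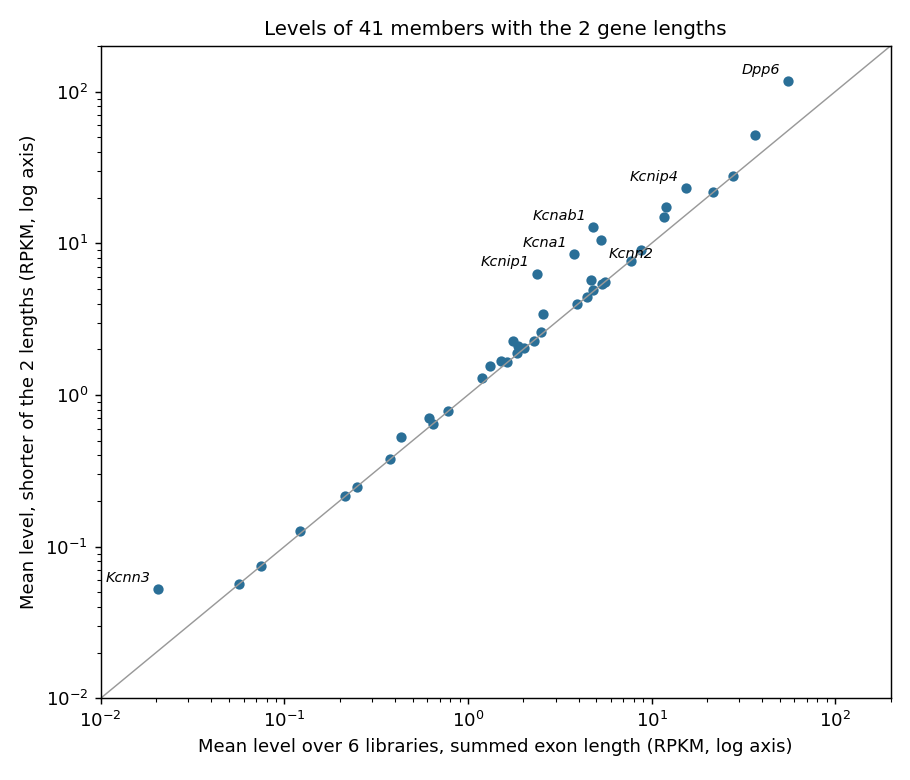
Mean level of the 41 members with counts, using the summed exon length of the files (horizontal) or the shorter of that and the longest coding transcript (vertical), both in RPKM on log axes; the line marks equal values. The 7 named members moved by over 1.5 times, up to 2.67-fold for Kcnip1, and the leader of each subfamily stayed the same gene.

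Females were compared with males to ask whether the sexes differ in these channels. Of the 42 members, 37 passed the count filter and were tested; Kcna3, Kcng4, Kcns1, Kcnj6 and Kcnn3 were not. No member differed between the sexes at an adjusted p under 0.05 (edgeR quasi-likelihood F-test, Benjamini-Hochberg over 14958 genes), where 0.0267% of all genes did, 4 genes in all. DESeq2 and limma voom also called 0 members, and so did every alternative run. In edgeR, 19 members had positive and 18 negative log2 changes (female minus male), with a median of 0.002 against -0.004 over all genes. At an unadjusted p under 0.05, 3 members were higher in females, a background of 2.90%, and none were lower. These were Kcnt2, Kcnd2 and Kcnj12, and in each, every female library stood above every male library, as for 4.18% of all genes. Kcnj12 was borderline, with an unadjusted p of 0.0499 from edgeR, 0.0637 from edgeR with upper-quartile scaling and 0.0394 from DESeq2. In edgeR, 2 members (Kcnt2 and Kcnj12) were under 0.05 without male A, and 1 (Kcnt2) without male C. Kcnip2 had every female library below every male library, as for 3.88% of all genes, with a log2 change of -0.45 and an unadjusted p of 0.0813 from edgeR. The Kcnip2 log2 change was -0.38 without male A and -0.48 without male C.

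Kcnt2 (chromosome 1, 140246216 to 140612063, plus strand) stood at 1.63, 1.69 and 1.76 RPKM in females A, B and C, against 0.458, 0.671 and 0.986 RPKM in males A, C and D. The females were close to one another and the males were not, with male A lowest. The log2 change was 1.26 with a standard error of 0.32 (edgeR unadjusted p = 0.00339, adjusted p = 0.961), and over the other settings the adjusted p lay between 0.151 and 1. Without male A the log2 change was 1.04 and without male C 1.23. Without both, male D was the only male left and the log2 change was 0.77. Leaving out both took more than a factor of 1.5 off the log2 change. Kcnt1, its paralogue, averaged 10.4 ± 2.74 RPKM in females and 12.9 ± 2.11 RPKM in males (SD, n = 3 each), with overlapping libraries.

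Kcnd2 (chromosome 6, 21215503 to 21729805, plus strand) stood at 0.701, 1.28 and 1.11 RPKM in females A, B and C, against 0.365, 0.547 and 0.689 RPKM in males A, C and D. Female A and male D lay next to each other, and the 2 libraries of record set 2 were the high ones. The log2 change was 0.94 with a standard error of 0.37 (edgeR adjusted p = 0.961). It was 0.74 without male A and 0.96 without male C. Without both it was 0.57, with male D the only male left. With record set as a term it was 0.39, and there female A alone is set against the males. Kcnj12 (chromosome 11, 61022564 to 61071131, plus strand) stood at 2.48, 2.28 and 2.42 RPKM in females A, B and C, against 2.02, 1.26 and 0.855 RPKM in males A, C and D. Its log2 change was 0.80 with a standard error of 0.35 (edgeR adjusted p = 0.961). It was 1.17 without male A and 0.74 without male C. Without both it was 1.47, with male D again the only male. Kcnd1, the X-linked member, averaged 27.5 ± 2.47 RPKM in females and 28.2 ± 3.79 RPKM in males (log2 change -0.03, standard error 0.19).

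**Figure D4:**
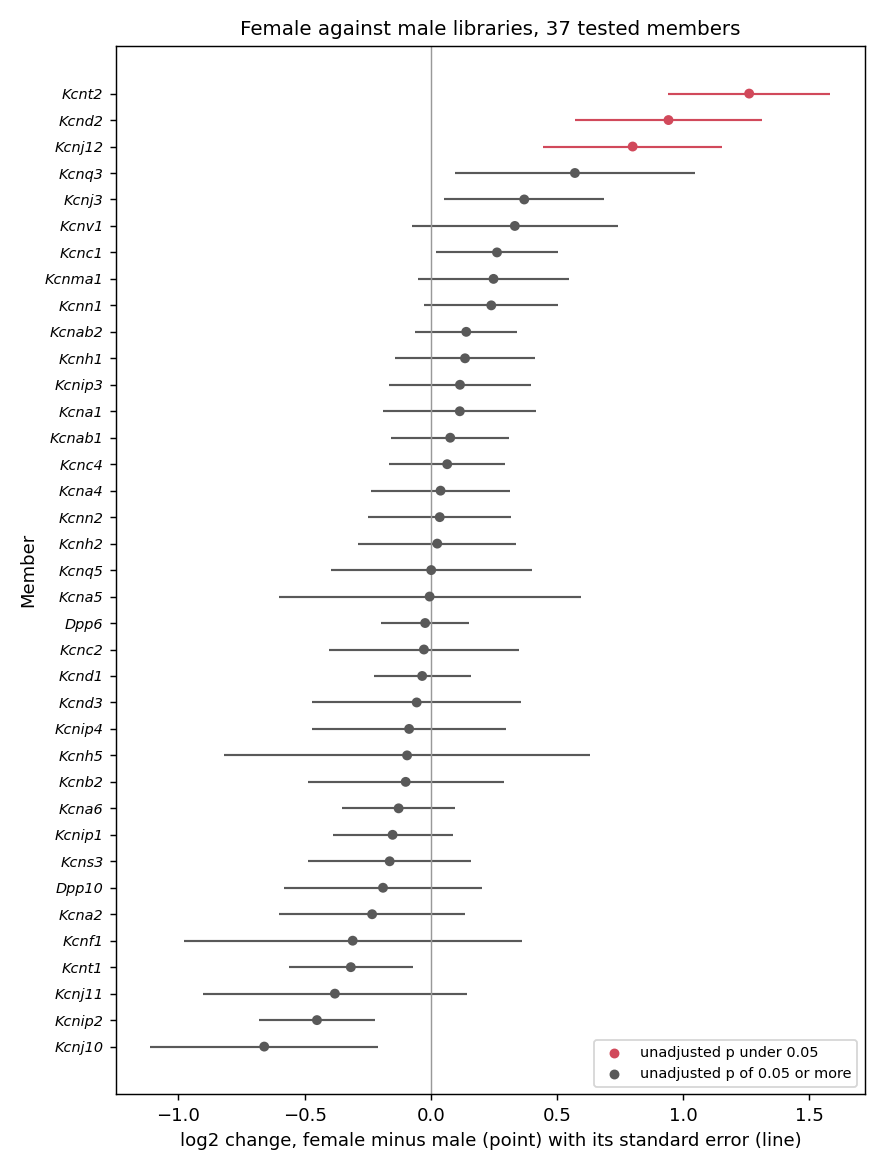
log2 change, female minus male, of the 37 tested members (point) with its standard error (line), from edgeR. Kcnt2, Kcnd2 and Kcnj12 lie highest and are the 3 with an unadjusted p under 0.05; none passed the adjusted threshold.

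Record set 2 was compared with record set 1 with sex as a term, so the change rests on female B and female C against female A. No member and no gene (0%) passed the adjusted threshold in edgeR, 483 genes had an unadjusted p under 0.05, and DESeq2 called 13 genes and 0 members. Negative log2 changes (record set 2 minus record set 1) were seen for 25 of 37 members, against 50.1% of all genes, with a median of -0.32 against -0.001. The split was 29 of 37 without female B, 25 of 37 without female C, and 22 of 37 with no sex term, where the median was -0.09. With DESeq2 size factors it was again 25 of 37. It was also 25 of 37 without male A and without male C. With sex as a term and no male in record set 2, leaving out a male could hardly change the split. Kcnj10 was the 1 member with an unadjusted p under 0.05, where 1.84% of genes were lower at that level. Its log2 change was -1.31 with a standard error of 0.53 (edgeR adjusted p = 1). The Kcnj10 change was -1.64 without female B and -1.04 without female C. Without male A it was -1.32, but leaving out a male could hardly move it, for the reason just given. Summed glial markers were at 1326 and 1198 CPM in female B and female C, against 1224 CPM in female A. Both record set 2 libraries stood below all 4 others for 8 members, Kcna2, Kcnc4, Kcnf1, Kcnip1, Kcnip2, Kcnj10, Kcns3 and Kcnt1, as for 10.3% of all genes, and above all 4 for Kcnd2 and Kcnt2, as for 11.3%. Record set and the pooling of embryos cannot be told apart, since the libraries of record set 2 held 1 embryo each and the others 2 or 3, and record set 2 held no male.

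Male A was the lowest library for 15 of the 37 members, against 28.3% of all genes, and the highest for 7, against 31.1%. The 15 include Kcnb2, Kcnd3, Kcnip4, Kcnq3, Kcnq5, Kcnv1, Kcnma1 and Kcnt2, and the 7 were Kcna5, Kcnab1, Kcnip1, Kcnip2, Kcnj10, Kcnj11 and Kcns3. With library totals in place of TMM factors, 13 members were lowest in male A against 22.6% of genes. The glial and fibroblast marker sums of male A, given above, were the highest of the 6 and its neuronal sum the lowest, and their part in these levels was not tested. Female A and male D were together the 2 highest libraries for 11 members, against 12.0% of all genes. These were Kcna2, Kcna4, Kcnb2, Kcnc2, Kcnd3, Kcnf1, Kcnip4, Kcnj3, Kcnn2, Kcnq5 and Dpp10, a set that was noticed after the values were seen and carries no test. With library totals in place of TMM factors it held 9 members, against 10.7% of genes, and without male C 13 members, against 17.8%. Mitochondrial genes took 2.29% and 2.91% of counts in female A and male D, against 1.10% to 2.21% in the other 4 libraries, and the part of this in the pattern was not tested.

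**Figure D5:**
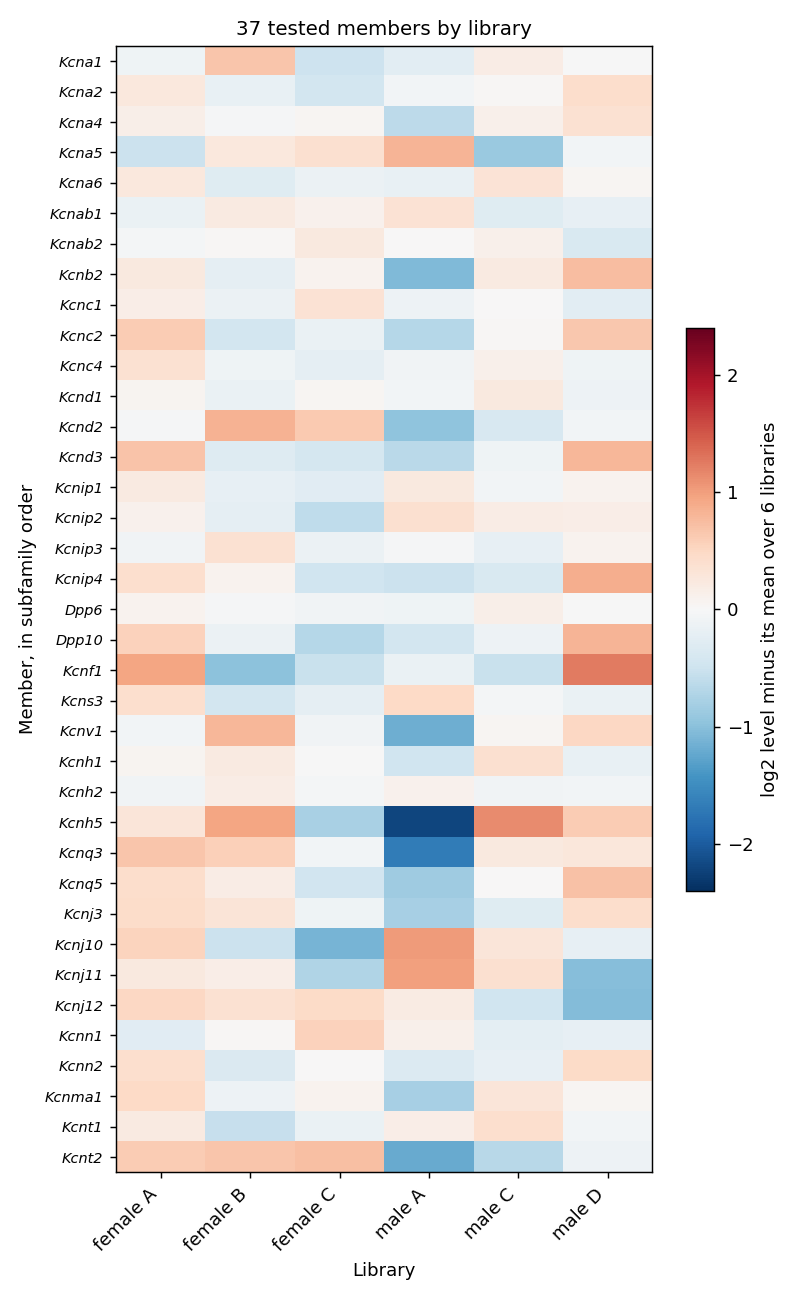
log2 level of the 37 tested members in each library minus the mean over the 6 libraries, with females to the left. Male A was the lowest library for 15 members, and female A and male D were together the highest for 11.

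The other potassium channel genes, a list of 44 pore and auxiliary genes outside the 42 of which 43 were found in the files, held 13 genes at 1 RPKM or more and 8 with at most 3 counts in every library. Of the 22 tested, edgeR called 0 higher and 0 lower in females and 0 either way between record sets, and none had an unadjusted p under 0.05 in either comparison. The highest was Kcnmb2, given above with Kcnma1, followed by Kcnh6, given above with Kcnh1.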

How the data were processed

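RNA of sorted EGFP-positive DRG cells was reverse transcribed and amplified as full-length cDNA, per the labels' protocols, and sequenced in 6 libraries. Reads were aligned with Subread and counted per gene by featureCounts 1.4.5 against GRCm38.p2, per the submitters' processing notes; how strand and multi-mapping reads were handled is not stated in the sources used here. In each file the authors deposited a raw count per gene, with CPM (the count at a common library total) and RPKM (CPM per kilobase of summed exon length) beside it, per the file headers. Only counts and lengths were used further.

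The 42 members and the other lists were chosen with earlier results of these data known. Symbols came from GENCODE M21, which names 40254 of the 41388 identifiers. RPKM was recomputed from counts, TMM factors and the length column. Genes were kept by filterByExpr and tested with edgeR 4.0.16 (glmQLFit, glmQLFTest) in R 4.3.3 over all 14958 genes, with sex, or sex and record set, as terms and an adjusted p under 0.05 as the threshold. The sex fit was also run on simulated counts in which libraries differed only by size and sex, unlike these libraries. Its outcome is not used here, and the record set fit was not simulated. DESeq2 1.42.0, limma 3.58.1 (voom), other scalings, filters and lengths, and leaving out libraries were alternatives. Genes named with values in each library were, by rule, the leader and runner-up of each subfamily, Kcnb2, Kcnma1, Kcnj10, members at an unadjusted p under 0.05, and members with a range over 4-fold at 1 RPKM or more; members under 0.1 RPKM are given by counts. Transcripts of the members were searched against all M21 transcripts with blastn 2.17.0 (95% identity over 150 bp): besides overlapping or antisense genes, no match covered over 10% of a member's transcript. Promoter windows are from RefSeq (GRCm38.p6). Some genes of the other potassium channel list are not reported here.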

Additional observations from a re-analysis of the deposited data

How the results depend on the processing

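No member passed the threshold between the sexes or between record sets under any alternative run, and the 12 subfamily leaders by mean were the same genes under each scaling, length and left-out library. Members with a mean of at least 1 RPKM numbered 30 and ranged over the alternatives from 29 with the longest coding transcript to 35 with TPM, and 33 reached 0.5 RPKM. The shorter of both lengths was chosen after seeing the data, as were the alternatives for the library patterns. Members not detected numbered 1 at up to 3 counts in every library and 5 at up to 10 counts. Genes called between the sexes, 4 in all, numbered 14 with no filter on low counts, 13 with DESeq2, 1 with limma voom, and 0 with record set as a term or in record set 1 only. Leaving out each library gave 0 (without female A) to 5 genes. The replicate letter as a replicate block gave 77 genes and 0 members; the letters do not pair the samples, which came from different embryos, with correlations of deviations of -0.08 for letter A and 0.05 for letter C. Genes called between record sets, 0 in all, numbered 3 with no filter, 13 with DESeq2, 115 in females only and 3 without a sex term. They numbered 0 on leaving out male A, male C, male D, female B or female C in turn. Leaving out female A, on which this comparison rests, was not run. The causes were not tested. With 3 libraries a sex, a common biological coefficient of variation of 31.1% and a record set contrast that rests on 1 female library of record set 1, these are the limits on the size of change that could be called, and members under 0.1 RPKM rest on 29 counts or fewer.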
